A study of Mus musculus with 8 samples.

Results

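miR-455 is made from a single hairpin precursor, and the array carried probes for both of its strands under the names mmu-miR-455 and mmu-miR-455*, the asterisk marking the less abundant strand in the older naming. These 2 names of the 611 mouse miRNA names on the array, with 4 of 1759 mouse probes, were taken by name alone. The pair was selected on the measured difference between obstructed and contralateral kidneys in these same arrays, where both strands were lower after obstruction. Every difference between those groups given below for a strand or its probes is therefore a description and carries no p-value.

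The samples were kidneys of mice of the outbred ICR strain, with unilateral ureteral obstruction (UUO), in which the ureter of one side is tied off. The study compared 4 UUO kidneys, taken after 7 days of ligation, with 4 contralateral kidneys whose ureter was open. The labels describe the control side as contralateral, so it comes from operated mice and is not a kidney of an untouched animal. Each RNA sample, 100 ng labelled with Cy3, went onto its own array, and the labels state neither separate mice nor which kidneys share a mouse. Spread between kidneys may therefore be partly technical.

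A miRNA hairpin is cut by Drosha and Dicer into a short duplex, and usually a single strand of it is kept in an Argonaute protein while the other is degraded. The retained strand finds messenger RNAs mainly through its seed, the bases near its 5′ end, and lowers their stability or translation. The miR-455 hairpin lies within Col27a1, which encodes a fibrillar collagen of cartilage. The miRNA is best known from cartilage cells and from brown fat formation.

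The mature sequences of both arms are shown because the strands are read through different seeds. RefSeq held both for the mouse precursor (GRCm38.p6, plus strand, the strand of Col27a1), at chr4:63256867-63256888 for the 5p arm and chr4:63256904-63256924 for the 3p arm, with 15 bases between them. Capitals mark the seed, bases 2 to 8.
mmu-miR-455-5p: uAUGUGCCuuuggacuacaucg
mmu-miR-455-3p: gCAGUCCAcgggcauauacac
mmu-miR-5129-3p: aAUGUGCCugugcaucucuucc
The 5p arm is 22 bases long and the 3p arm 21, and their seeds differ. Of 1738 mature mouse entries, miR-5129-3p alone shares the 5p seed, and no other mature entry shares the 3p seed. miR-5129 was not among the array's names. The scanner files give names without probe sequences, so which arm each array name stands for is not assigned here.

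Values are given on 2 scales. The unscaled level is the sum of the mean background-subtracted spot signals of a strand's probes, in scanner units. The scaled level divides it by the array's 75th percentile signal, taken over 371 probes that were detected (well above background) on each of the 8 arrays. The arrays differed in that percentile, at 689, 514, 1403 and 1595 for UUO kidneys 1 to 4 and between 417 and 582 for contralateral kidneys, so a scaled value is a level relative to an array's own bright miRNAs. All 8 arrays lay on 1 slide, in 2 slide rows that each held 2 kidneys of each group. UUO kidney 2 stood apart, with a mean correlation across miRNAs of 0.887 with the other UUO arrays and 0.964 with the contralateral arrays. All 7 kidney tubule miRNAs listed as markers of the labelled tissue, such as miR-192 and miR-10a, were above background on every array. Of markers of other organs, liver miR-122, brain miR-124 and pancreas miR-216a and miR-217 were above background on none. Brain miR-9 was above background on all 8 arrays, and pancreas miR-375 on 3 of 4 UUO and 2 of 4 contralateral arrays.

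mmu-miR-455, the brighter strand on this array, had scaled levels of 0.248, 0.335, 0.203 and 0.121 in UUO kidneys 1 to 4. Contralateral kidneys 1 to 4 had 0.647, 0.361, 0.497 and 0.678. All UUO kidneys lay below all contralateral kidneys, but UUO kidney 2 and contralateral kidney 2 nearly met. The mean was -2.24 ± 0.62 on the log2 scale in UUO kidneys and -0.92 ± 0.42 in contralateral kidneys (SD, n = 4 each). The log2 difference was -1.32 with a standard error of 0.34 from the limma fit over all tested miRNAs, a level 2.50-fold lower in UUO kidneys.

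mmu-miR-455*, the dimmer strand, had scaled levels of 0.0241, 0.0296, 0.0230 and 0.0214 in UUO kidneys 1 to 4. In contralateral kidneys 1 to 4 they were 0.0960, 0.0429, 0.0578 and 0.0968. The groups did not overlap, and the lowest contralateral kidney was 1.45 times the highest UUO kidney. The log2 mean was -5.36 ± 0.20 in UUO kidneys and -3.85 ± 0.58 in contralateral kidneys (SD, n = 4 each). That is a difference of -1.51 (SE 0.29), or 2.85-fold lower in UUO kidneys. All 4 UUO kidneys sat just above the floor of 0.0213 that was set for dim signals, and with that floor doubled the difference was -0.70.

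Before scaling, the groups overlapped for both strands. miR-455 had 171, 172, 284 and 193 scanner units in UUO kidneys 1 to 4, against 332, 151, 274 and 395 in contralateral kidneys 1 to 4. Its lowest array was contralateral kidney 2, and UUO kidney 3 lay above contralateral kidney 3. miR-455* had 16.6, 15.2, 32.3 and 34.1 units in UUO kidneys 1 to 4 and 49.3, 17.9, 31.9 and 56.4 units in contralateral kidneys 1 to 4. UUO kidneys 3 and 4 lay above contralateral kidneys 2 and 3. The unscaled log2 difference was -0.44 (SE 0.46) for miR-455 and -0.63 (SE 0.50) for miR-455*. The median difference of all tested miRNAs was 0.74 without scaling and -0.14 with it. The strands stood 1.18 and 1.37 below that median on either scale. Dividing an array by 1 number shifts its miRNAs above the floor equally, so this match was fixed in advance. Relative to the median, both stood at -0.72 and -0.75 with normexp background correction and at -1.28 and -1.46 with quantile normalization. With the floor doubled, miR-455 stood at -1.18 and miR-455* at -0.56. In bulk tissue, fewer cells carrying a miRNA and less of it per cell cannot be told apart.

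**Figure D1:**
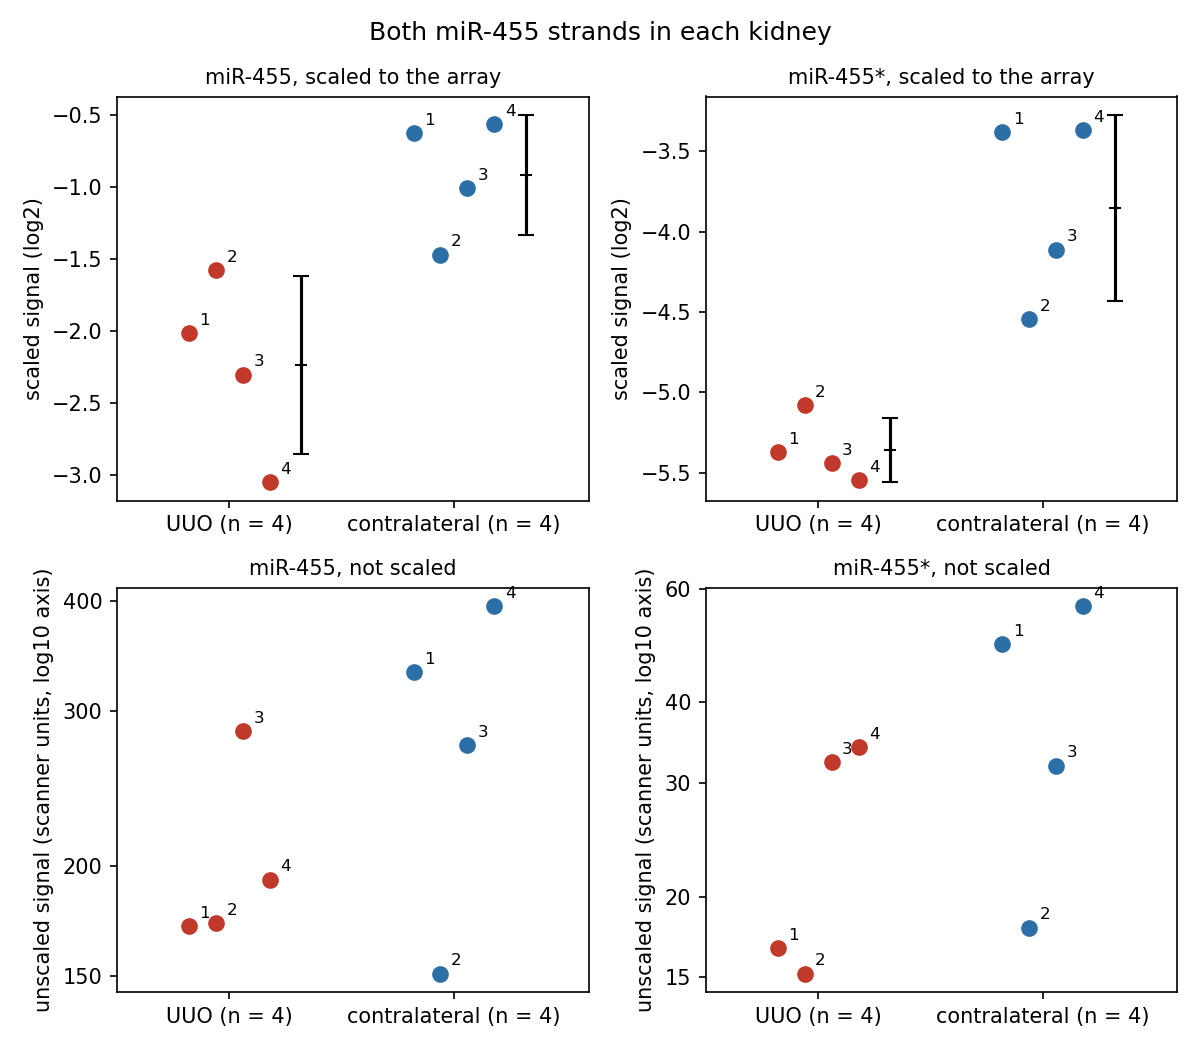
Level of miR-455 (left) and miR-455* (right) in each kidney, as log2 scaled signal (top, with mean and SD beside the points) and as unscaled signal in scanner units on a log10 axis (bottom); numbers are kidney numbers. The scaled groups do not overlap for either strand, while the unscaled groups do, with contralateral kidney 2 the lowest miR-455 array at 151 units.

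Of the 222 miRNAs tested, 30 were called lower in UUO kidneys (13.5%) and 3 higher (1.35%) by limma at a Benjamini-Hochberg adjusted p under 0.05. These counts depended on the scaling and on single kidneys. Without scaling 3 were called higher and 0 lower (limma, 64 in either direction at an unadjusted p under 0.05). None was called with the percentile taken over all mouse probes (56), with normexp background correction (54) or with the replicate number as a block (67). Leaving out single kidneys gave 0 to 113 calls, with 113 without UUO kidney 2, 14 without UUO kidney 4, 20 without contralateral kidney 2 and 0 without any of the other five. Calls of single miRNAs given further on are those of the main scaling with all 8 arrays. All UUO arrays lay below all contralateral arrays for 47 miRNAs (21.2%) after scaling and for 0 (0%) before it. Both miR-455 strands are among the 30 and the 47, which their choice fixed. By size of difference miR-455* was the third lowest of the 222 and miR-455 the fifth lowest in the main setting. These ranks depended on the processing and the kidneys used. With the floor doubled miR-455* was number 41 and miR-455 number 3. With the mean of log2 probe values they were number 33 and number 1, and within slide row 1 number 4 and number 23. The dashed line in the plot of all tested miRNAs shows how far both stood from the median.

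**Figure D2:**
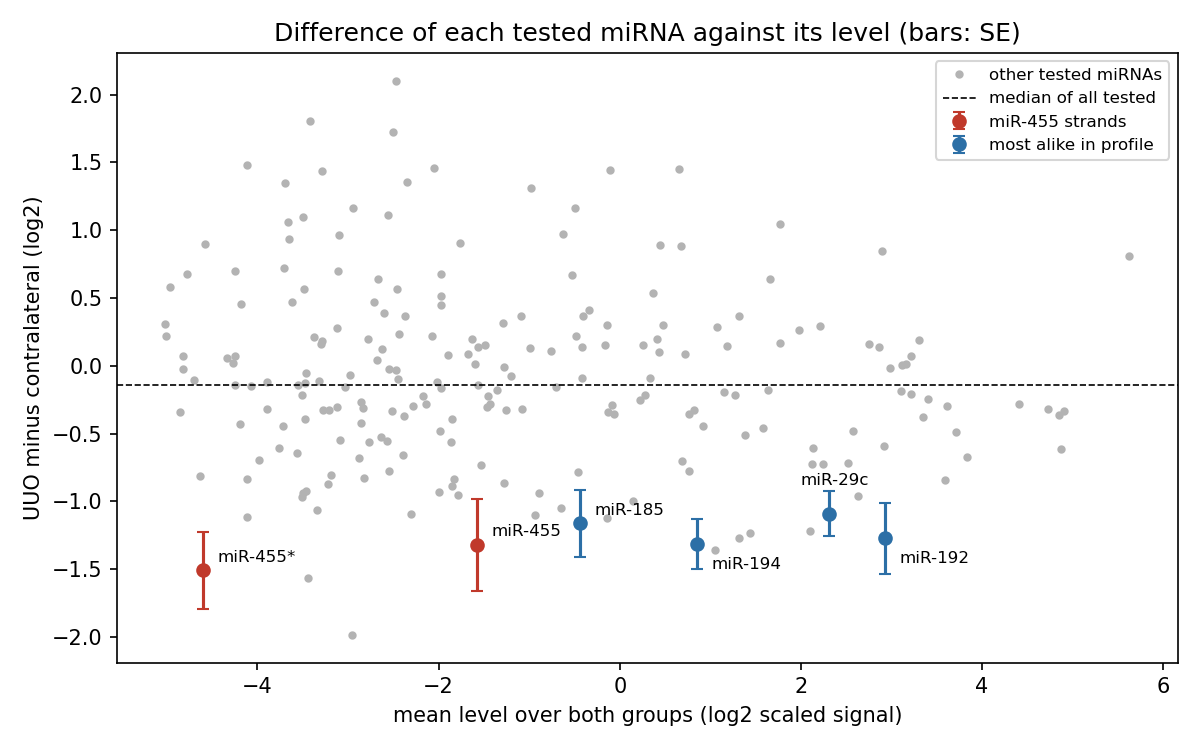
Difference between UUO and contralateral kidneys (log2, vertical axis) against mean level (log2 scaled signal, horizontal axis) for the 222 tested miRNAs, with SE bars on the named ones and a dashed line at the median difference of -0.14. miR-455* at -1.51 and miR-455 at -1.32 lie near the lower edge, at a low and a middle level.

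A ratio of a strand to another miRNA on the same array does not depend on the scaling where both lie above the floor. Some of the other miRNAs, such as miR-327 on its lowest UUO array, were held at the floor. Against each of the 220 other tested miRNAs, the mean log2 ratio of miR-455 was lower in UUO kidneys for 217, and that of miR-455* for 218. The group difference of such a ratio is the strand's own difference less that of the other miRNA. Both counts therefore restate the ranks of the strands by size of difference, which their choice favoured, and are no separate support. All UUO arrays lay below all contralateral arrays for 127 of the 220 ratios of miR-455* (57.7%) and for 33 of those of miR-455 (15%). For neither strand did any ratio lie wholly above. The choice of the strands favoured such separation, and the same share was not computed for ratios of other miRNAs. The miR-455* levels of all UUO kidneys sat just above the floor of 0.0213, and its probe A_54_P3633 was above background on no UUO array.

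Each strand was read by 2 probes of 10 spots an array. Probe A_54_P2937 gave 86.6 to 88.9% of the miR-455 signal in UUO kidneys and 85.0 to 86.5% in contralateral kidneys. It read 152, 149, 250 and 167 units in UUO kidneys 1 to 4 and 285, 128, 237 and 337 units in contralateral kidneys 1 to 4. Its scaled log2 difference was -1.29, and the spread over its spots, 5.28 to 9.82% of the mean, was small beside the spread between kidneys. The dimmer miR-455 probe, A_54_P2936, read 18.9 to 34.6 units in UUO kidneys and 22.7 to 57.5 units in contralateral kidneys, a scaled log2 difference of -1.52. Both miR-455 probes were above background on all 8 arrays.

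The miR-455* signal came mostly from probe A_54_P3634, which was above background on all 8 arrays. It read 13.5, 12.7, 25.5 and 26.1 units in UUO kidneys 1 to 4 and 38.1, 13.7, 24.6 and 43.0 units in contralateral kidneys 1 to 4. Its scaled log2 difference was -1.45, and -1.27 when 3 UUO arrays were held at the floor. The other probe, A_54_P3633, was above background on no UUO array and on 1 of 4 contralateral arrays. It read 3.13, 2.47, 6.79 and 8.00 units in UUO kidneys 1 to 4 and 11.2, 4.18, 7.26 and 13.3 units in contralateral kidneys 1 to 4. Negative-control spots reached 4.44 to 4.86 units on UUO arrays and 4.49 to 5.63 units on contralateral arrays at their mean plus 2 SD. UUO kidneys 1 and 2 and contralateral kidney 2 were below that level for this probe. With both probes averaged on the log2 scale instead of summed, the difference of miR-455* was -0.65. The dim probe was then held at the floor on all UUO arrays and on 2 contralateral arrays. On contralateral kidneys 1 and 4 it lay just above the floor, so that its own difference was -0.035, averaged with the -1.27 of A_54_P3634.

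**Figure D3:**
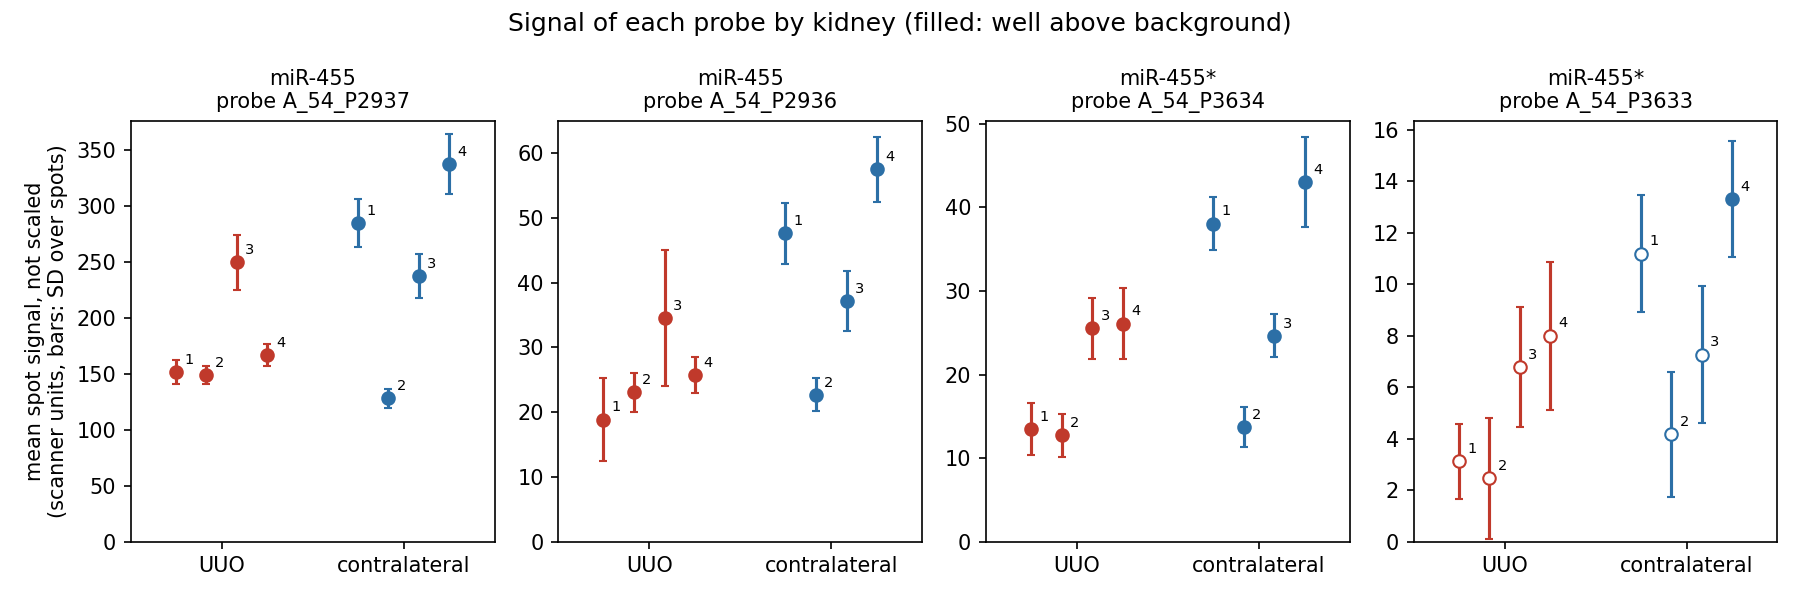
Mean spot signal of each of the 4 probes (scanner units, not scaled, axes from 0) in UUO kidneys (left of each panel) and contralateral kidneys (right); bars are the SD over spots of the same array, numbers are kidney numbers, and filled points were well above background. A_54_P2937 reads between 128 and 337 units, A_54_P3633 between 2.47 and 13.3 units with a single filled point, contralateral kidney 4.

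The strands had similar orders of kidneys within a group. Among contralateral kidneys both strands had the order 4, 1, 3, 2 from high to low, on the scaled and on the unscaled scale. Among UUO kidneys both had the order 2, 1, 3, 4 after scaling, which is the reverse of the order of the arrays' 75th percentile signals. Before scaling, the UUO order was 3, 4, 2, 1 for miR-455 and 4, 3, 1, 2 for miR-455*. Both strands lay on the same side of their group mean on 7 of 8 arrays after scaling and on 6 of 8 before it. These arrays share their scaling divisor, labelling and hybridisation.

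The log2 level of miR-455* minus that of miR-455 is free of the scaling. It was -3.36, -3.50, -3.14 and -2.50 in UUO kidneys 1 to 4, against -2.75, -3.07, -3.10 and -2.81 in contralateral kidneys 1 to 4. UUO kidneys spanned the whole contralateral range, with kidneys 1, 2 and 3 below it and kidney 4 above it. The means were -3.12 ± 0.44 in UUO and -2.94 ± 0.18 in contralateral kidneys (SD, n = 4 each). The difference between groups of -0.19 was smaller than the spread within UUO kidneys.

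Other precursors were also measured on both strands. Among 16 precursors with both strands tested, both were called lower for 2, 1 strand was called for 6 and none for 8. Of all tested miRNAs 14.9% were called in either direction, a share of single miRNAs that does not compare directly with counts of precursors. Without the pair of miR-455, which was chosen for its fall, both strands were called for 1 of 15. The pair called besides miR-455 was that of miR-29c, whose guide strand is known to target collagen messenger RNAs. miR-29c changed by -1.09 ± 0.17 and miR-29c* by -1.10 ± 0.25 (SE, n = 4 each; adjusted p = 0.0172 and 0.0277 by limma). Over the other 15 precursors the median log2 difference was -0.72 for the strands without asterisk and -0.56 for those with it. The strands of a precursor had differences of the same sign in 14 of those 15, with miR-467b, named after its values were seen, as the exception.

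**Figure D4:**
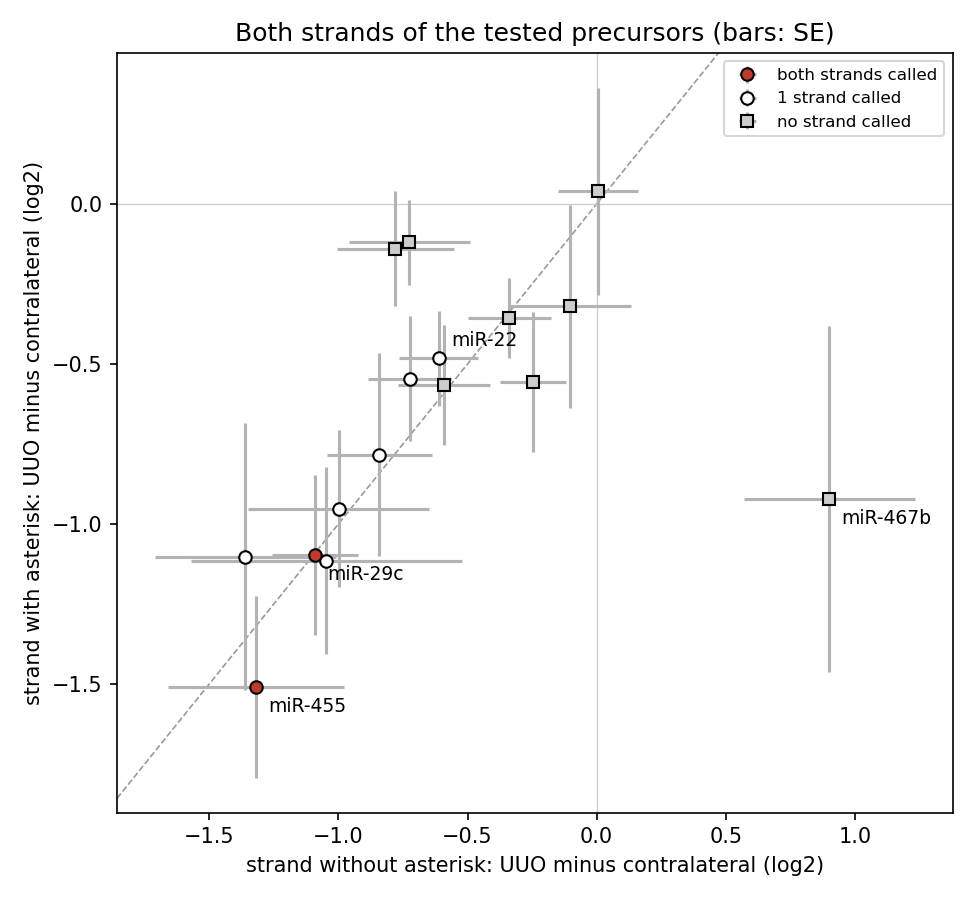
Log2 difference between UUO and contralateral kidneys of the strand without asterisk (horizontal axis) and with asterisk (vertical axis) for the 16 precursors with both strands tested, with SE bars and a dashed line of equal difference. miR-455 lies lowest on the vertical axis, at -1.32 and -1.51, and miR-467b alone has strands of opposite sign.

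The miRNAs with the most similar profile over the 8 arrays were miR-192, miR-185, miR-194 and miR-29c. Likeness was the root-mean-square difference from the mean profile of both strands, each profile centred on its own mean. It was 0.20 for miR-192, 0.24 for miR-185, 0.25 for miR-194 and 0.33 for miR-29c on the log2 scale, against a median of 0.85 over the 220 others. miR-192 and miR-194 are abundant in kidney tubule epithelium. The log2 level of miR-192 was 2.24, 2.85, 2.40 and 1.67 in UUO kidneys 1 to 4 and 3.74, 3.18, 3.57 and 3.74 in contralateral kidneys 1 to 4. It too was highest among UUO kidneys in kidney 2 and lowest in kidney 4. So were miR-185 and miR-29c, while miR-194 was highest in kidney 3 and lowest in kidney 4. UUO kidney 2 had the lowest and UUO kidney 4 the highest 75th percentile signal, by which the levels are divided. The strands differed from each other by 0.31 on this measure, so that miR-455* was number 4 in likeness to miR-455, and miR-455 number 3 in likeness to miR-455*. The measure includes the difference between groups that chose the strands.

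Of 8 other miRNAs studied in cartilage, 5 were tested, 1 was called lower and 0 higher (limma; 2 lower and 0 higher at an unadjusted p under 0.05). Among all tested miRNAs 13.5% were called lower. The list had a median log2 difference of -0.34 beside -0.14 for all tested miRNAs. miR-140, the cartilage miRNA hosted by Wwp2, was at -0.34 ± 0.16 and its partner miR-140* at -0.36 ± 0.13 (SE, n = 4 each; adjusted p = 0.171 and 0.0894 by limma). miR-365 fell by 1.23 on the log2 scale (SE 0.24, limma adjusted p = 0.0172). miR-27b was at -0.18 ± 0.13 and miR-199a-3p at 1.05 ± 0.48 (adjusted p = 0.327 and 0.155 by limma).

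Of 13 miRNAs studied in brown fat formation, 10 were tested, 2 were called lower and 0 higher (limma; 5 lower and 1 higher at an unadjusted p under 0.05). That is beside 13.5% called lower among all tested miRNAs. On the log2 scale the list's median difference was -0.85, and that of all tested miRNAs was -0.14. The called members were miR-365 and miR-203, a miRNA known from skin epithelium, which fell by 0.93 (SE 0.16, limma adjusted p = 0.0172). miR-30c was at -1.22 ± 0.37 and miR-30b at -0.78 ± 0.23 (SE, n = 4 each; adjusted p = 0.0649 and 0.0579 by limma), and miR-27b is given above. miR-196a, from the Hox clusters, was at -0.21 ± 0.14 (limma adjusted p = 0.279).

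Cell type markers are given here beside miR-455. The summed scaled level of 7 kidney tubule miRNAs ran from 29.8 to 44.2 in UUO kidneys and from 55.3 to 58.8 in contralateral kidneys, with no overlap. The brightest members weigh most in such a sum. Of all tested miRNAs, 21.2% had all UUO arrays below all contralateral arrays after scaling and 0% before it. Of the 7, miR-192, miR-194 and miR-30a were called lower, 3 members, beside 13.5% of all tested miRNAs, while miR-10a was at 0.0043 and miR-204 at -0.12 on the log2 scale. The sum of 6 leukocyte miRNAs had a lowest, median and highest value of 1.80, 6.62 and 7.22 in UUO kidneys and of 1.85, 1.94 and 2.55 in contralateral kidneys, so the ranges overlapped. Of its 4 tested members 0 were called by limma (2 higher at an unadjusted p under 0.05), beside 1.35% of all tested miRNAs called higher. Their log2 differences were 1.31 for miR-142-3p, 1.45 for miR-223, 1.46 for miR-342-3p and 0.67 for miR-146a. The untested miR-142-5p was above background on no contralateral array. Of 2 endothelial miRNAs, 1, miR-126-5p, was called lower, at -0.81 on the log2 scale, beside 13.5% of all tested miRNAs. The far brighter miR-126-3p was at -0.30 and was not called (limma adjusted p = 0.201). No tested miRNA was called among 2 erythroid, 1 smooth muscle and 1 striated muscle markers (limma; 0, 0 and 1 at an unadjusted p under 0.05), beside 14.9% of all tested miRNAs. The part of any of these cell types in the levels of miR-455 was not tested.

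The sign of both differences was fixed by the choice of the strands, and their size depended on the kidneys used. When each kidney was left out in turn, the log2 difference stayed between -1.54 and -1.05 for miR-455 and between -1.74 and -1.35 for miR-455*. Without UUO kidney 2 the differences were -1.54 (SE 0.32) and -1.60 (SE 0.30). Within slide row 1 they were -0.75 for miR-455 and -1.26 for miR-455*, and within slide row 2 -1.89 and -1.75 (2 against 2 kidneys each). Slide row 1 held kidneys 1 and 2 of each group, and the miR-455 levels of the kidneys numbered 2 nearly met. The 75th percentile signals also differed by row. In slide row 1 they were 689 and 514 for UUO kidneys and 513 and 417 for contralateral kidneys. In slide row 2 they were 1403 and 1595 for UUO kidneys and 552 and 582 for contralateral kidneys. Why the differences of the strands varied by row was not tested.

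**Figure D5:**
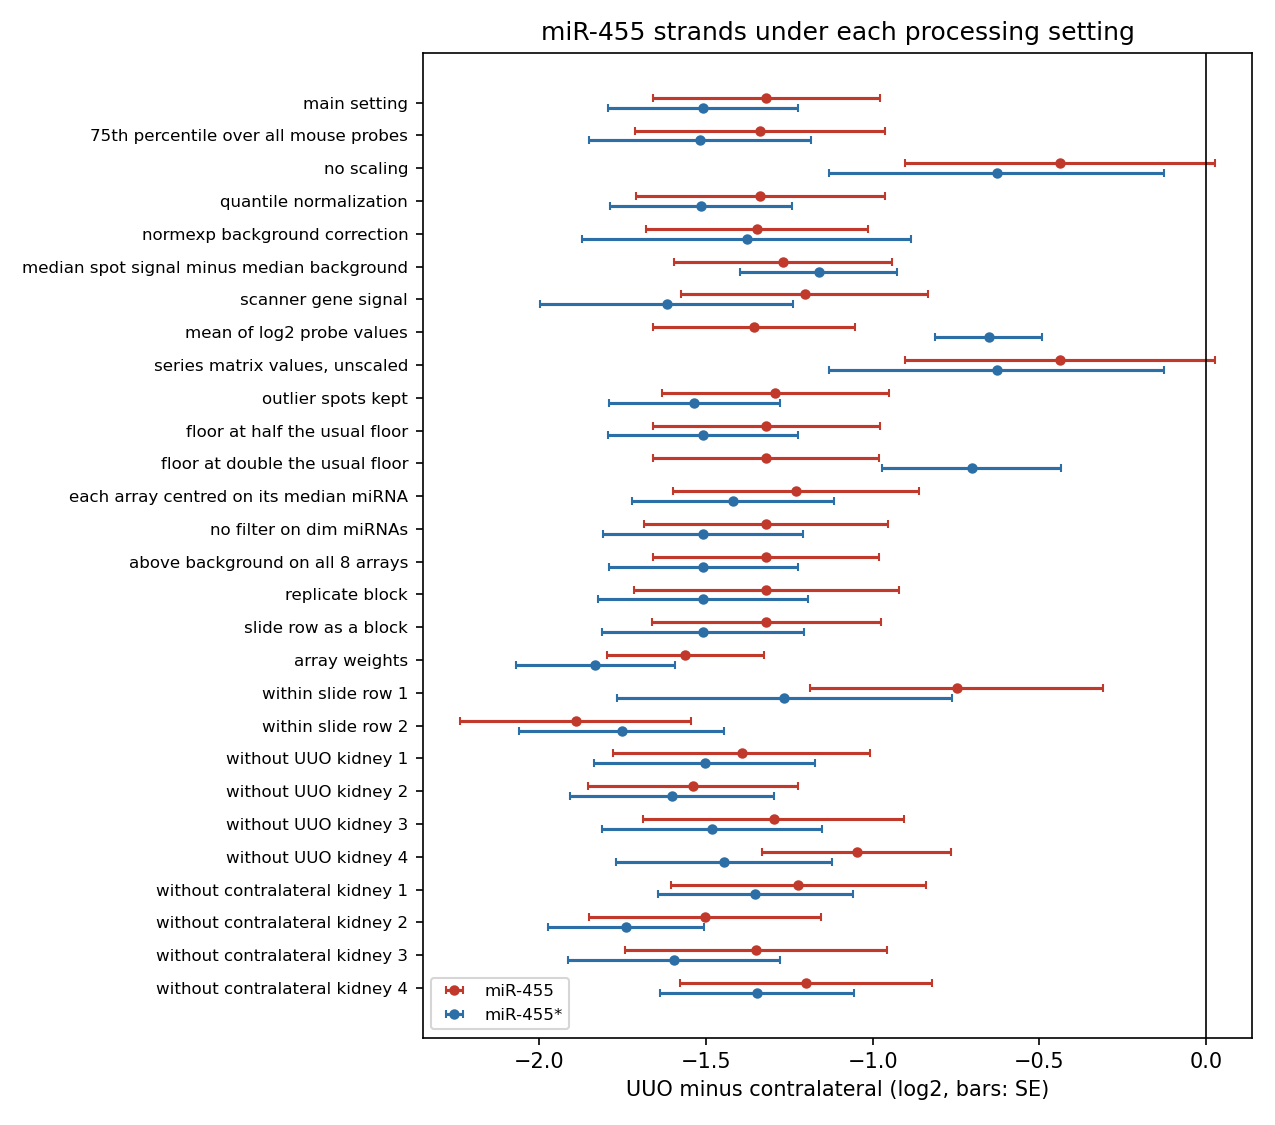
Log2 difference between UUO and contralateral kidneys of miR-455 (red) and miR-455* (blue) under the main setting and 27 alternatives of processing or sample choice, with SE bars. All points lie below 0, as the choice of strands favours; the nearest to 0 are those without scaling, at -0.44 and -0.63.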

How the data were processed

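Total RNA of 4 UUO and 4 contralateral kidneys was hybridised to 1-colour Agilent mouse miRNA arrays. The deposited values were spot intensity values from Agilent Feature Extraction (10.1.1 per the submitters' processing notes, 10.7.3.1 per the file headers), with local background subtracted and spatial trends removed and no scaling between arrays. The deposited marks of 0 or 1 per spot (outlier, saturated, well above background) were another kind of value, per the file headers. The authors' series matrix equalled the processed intensity values exactly. Its column medians, scale and direction are therefore those of the scanner files. No spot of a mouse probe was saturated, and between 2.27% and 3.55% of them were outliers, which were left out. No 2 arrays were identical.

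Spot signals were averaged per probe. A probe was above background on an array where over 50% of its spots carried the mark, and 371 probes were so on all arrays. Their 75th percentile was the divisor of each array. Probe signals were then summed per miRNA, raised to a floor of 0.0213 where lower, and put on the log2 scale. For the floor, the 1st percentile of detected probes' scaled signals was found per array and the median of these was taken. The 222 miRNAs above background on all 4 arrays of either group were fitted with limma 3.58.1 (lmFit, eBayes, two-sided, Benjamini-Hochberg) in R 4.3.3. The fit was tested on simulated data. Python 3.11.15 and pandas 2.3.3 did the rest.

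Both strands and all lists were chosen with earlier results of these data known. The naming rule took both strands, the 4 miRNAs of most similar profile, up to 6 tested members of the cartilage and brown fat lists (called members first, then by mean signal), and precursors with both strands called. Array number and spot signal limit the precision. Mean spot signals were not used here, so normexp correction (offset 50) ran on median spot and background signals.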

Additional observations from a re-analysis of the deposited data

How the results depend on the processing

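Both strands kept a negative difference under all 27 alternatives, from -1.89 to -0.44 for miR-455 and from -1.83 to -0.63 for miR-455*. Some alternatives could not move the differences. The blocks by replicate number and slide row and the changed filters on dim miRNAs leave the group means as they are. Without scaling, and with the unscaled series matrix, which holds the same values, the differences were -0.44 and -0.63. Within slide row 1 miR-455 was at -0.75 and within slide row 2 at -1.89. miR-455* was at -0.65 with the mean of log2 probe values and at -0.70 with the floor doubled, since its UUO levels lay under that floor. The difference of miR-455* minus miR-455 turned to 0.70 and 0.62 under those settings, to 0.11 with median spot signals and to 0.14 within slide row 2, so its sign is not settled. Leaving out single kidneys gave -1.54 to -1.05, -1.74 to -1.35 and, for the strand difference, -0.40 to -0.064. The cause of the other shifts was not tested.

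The number of miRNAs called by limma was 33 and moved widely. It was 0 with scaling over all mouse probes (56 at an unadjusted p under 0.05), with normexp (54), with arrays centred on their median miRNA, an alternative chosen after seeing the data (53), and within slide row 1 (1). It was 3 without scaling, with the series matrix, with quantile normalization and with the scanner gene signal, 17 without the filter on dim miRNAs, 69 within slide row 2 and 138 with array weights. The split of calls was 3 higher and 0 lower without scaling, 1 and 2 with quantile normalization, and 2 and 1 with the gene signal. Leaving out single kidneys gave 0 to 113 calls, with 113 without UUO kidney 2, 14 without UUO kidney 4, 20 without contralateral kidney 2 and 0 without any of the other five (limma, 54 to 67 at an unadjusted p under 0.05). With the replicate number as a block there were 0 calls (limma, 67 at an unadjusted p under 0.05). The differences of both strands, which this balanced block cannot move, were -1.32 (SE 0.40) and -1.51 (SE 0.32). The labels do not state whether kidneys of the same number share a mouse. Deviations of same-numbered kidneys from their group means correlated at -0.35, 0.22, 0.62 and 0.015 over miRNAs for numbers 1 to 4. Kidneys 3 had the highest correlation of any UUO and contralateral kidney, but not every kidney correlated best with its own number. The numbers were therefore not treated as pairs, and whether they pair the kidneys is not settled. Summed levels of miR-455* in UUO kidneys lay just above the floor of 0.0213, so doubling the floor moved its difference and halving it left it at -1.51.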

Other observations

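The brighter probe of miR-455 read somewhat higher relative to the dimmer one in UUO kidneys, with groups that nearly met. The log2 signal of A_54_P2937 over that of A_54_P2936, which is free of scaling between arrays, was 3.01, 2.69, 2.85 and 2.70 in UUO kidneys 1 to 4 and 2.58, 2.50, 2.68 and 2.55 in contralateral kidneys 1 to 4. The highest contralateral kidney, number 3, lay just under the lowest UUO kidney, number 2. The spots of the dimmer probe spread by 8.67 to 33.8% of their mean within an array. Whether the probes changed by unequal amounts was not tested.

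The precursor of miR-22 also had both strands wholly below the contralateral arrays in UUO kidneys, at -0.61 ± 0.15 for miR-22 and -0.48 ± 0.15 for miR-22* (SE, n = 4 each), of which miR-22 alone was called (limma adjusted p = 0.0335 and 0.0649). It was named after its values were seen. Both strands lay wholly below for 3 of 16 precursors, those of miR-455, miR-29c and miR-22. Of all tested miRNAs, counted singly and not as precursors, 21.2% lay wholly below after scaling and 0% before it.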
